A study of Homo sapiens with 6 samples.

Results

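The transcripts described here encode 9 receptors and co-receptors of the sympathetic neuron lineage, namely ALK, LTK, RET, GFRA1, GFRA2, GFRA3, NTRK2, NTRK3 and NGFR. They were taken by gene symbol from a deposited table of 35473 gene rows, and all 9 symbols had a row. The table holds polyA-selected RNA sequencing of IMR32, a human neuroblastoma line with an amplified MYCN gene. One group of 3 libraries came from cells given 5 µM CBR-470-1 for 24 h, and the other 3 came from cells given the DMSO vehicle for the same time. CBR-470-1 is a small molecule known as an inhibitor of the glycolytic enzyme PGK1, and the study concerned the link of glycolysis to KEAP1-NRF2, a stress response pathway. No other agent or genetic change is named in the labels, all libraries come from a single cell line, and the dose and time are the only ones analysed here. Values are TPM, a length-scaled share of the library, so levels can be set side by side between genes. How many reads stand behind a value cannot be read from TPM, so depth is unknown here.

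ALK and its close relative LTK are receptor tyrosine kinases switched on by the ALKAL ligands. RET is a receptor tyrosine kinase that does not bind its ligands alone. The GFRA co-receptors, held in the membrane by a lipid anchor, capture GDNF family ligands and present them to RET. NTRK2 and NTRK3 encode TrkB and TrkC, the kinases for BDNF and for neurotrophin-3, while NGFR encodes p75, a receptor without a kinase that binds all neurotrophins. In developing sympathetic neurons these receptors carry survival and outgrowth signals, and ALK mutations occur in some neuroblastomas.

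The 6 libraries each summed to between 972453 and 973696 TPM and listed between 20020 and 20598 rows above 0. Of 10 markers of adrenergic neuroblastoma cells, 0 lay under 1 TPM, and HAND2, a lineage transcription factor, averaged 581 TPM with DMSO and 565 TPM with CBR-470-1. Of 7 Schwann and glial markers, 6 lay under 1 TPM and the list summed to between 2.64 and 4.42 TPM over the libraries, with SOX10, the defining glial factor, averaging 0.02 TPM in either group. Of 9 blood and epithelial markers, all lay under 1 TPM. Of 8 mesenchymal markers, 3 lay under 1 TPM, and the list summed to between 45.4 and 47.6 TPM in DMSO and between 49.8 and 53.7 TPM in CBR-470-1. The part of these markers in the results was not tested. In bulk RNA, fewer cells of a type and less RNA per cell cannot be told apart.

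The levels of the 9 transcripts spanned more than 3 orders of magnitude, and their order was the same in both groups. GFRA2 was the most abundant, followed by ALK, NTRK3, GFRA1, NGFR, RET, NTRK2, GFRA3 and LTK. Within each group the ranges of neighbours in this order did not overlap. GFRA2 stood 761st among all 35473 rows by mean TPM, with 2.14% of rows above it, while 36.1% of rows lay above RET and 56.7% above LTK. GFRA2 made up 77.7% ± 0.812 of the summed TPM of the 9 genes in DMSO and 81.0% ± 0.758 in CBR-470-1 (SD, n = 3 each). The 3 CBR-470-1 libraries, at 80.4% to 81.8%, all lay above the 3 DMSO libraries, at 77.2% to 78.6% (two-sided exact permutation test, p = 0.1, the smallest p that 3 against 3 can give). The sum itself was 251 ± 18.4 TPM with DMSO and 258 ± 6.03 TPM with CBR-470-1, with overlapping ranges (exact permutation test, p = 0.6).

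**Figure D1:**
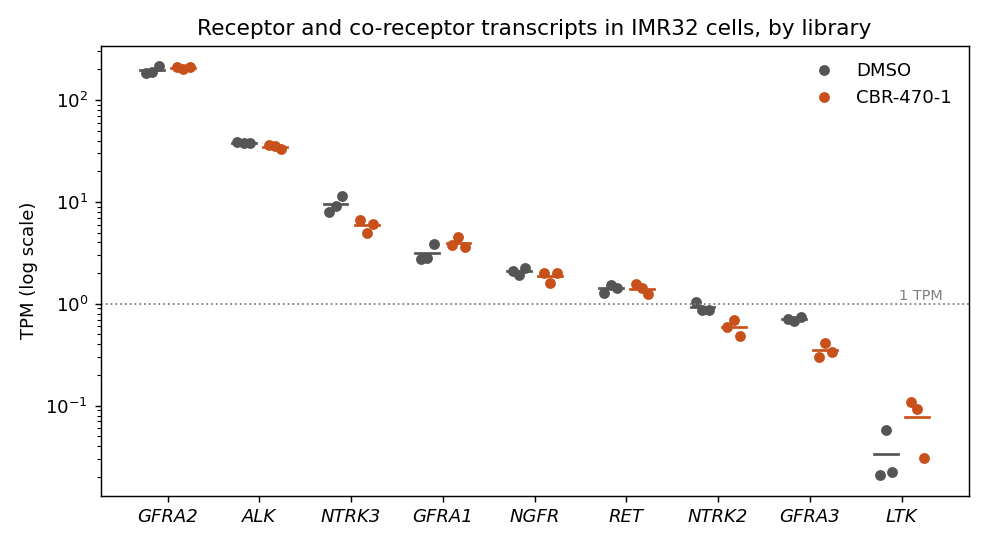
TPM of each of the 9 transcripts on a log axis, with 1 point per library and a bar at each group mean (n = 3). GFRA2 lies near 200 TPM and LTK below 0.11 TPM. For ALK, NTRK3, NTRK2 and GFRA3 all CBR-470-1 points lie below all DMSO points.

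None of the 9 genes passed the test for a difference between CBR-470-1 and DMSO. The test was limma on log2(TPM + 1), with p-values adjusted over all rows that averaged 1 TPM or more and a threshold of 0.05. It took in 6 of the 9 genes, because LTK, GFRA3 and NTRK2 averaged under 1 TPM, and it called 0 of the 6, against 265 of 13470 tested rows, or 1.97%. At an unadjusted p under 0.05 there was 1 of 6, NTRK3, against 23.5% of tested rows. The median log2 fold change of the 6 was -0.06, against 0.03 over all tested rows. The 2 groups did not overlap for ALK and NTRK3, which were lower in CBR-470-1, against 12.5% of tested rows lower in this way. For 0 of the 6 were all CBR-470-1 libraries above all DMSO libraries, against 17.7% of tested rows. A difference that misses the threshold with 3 libraries a group is not shown to be absent, and the intervals below give the sizes these data allow.

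**Figure D2:**
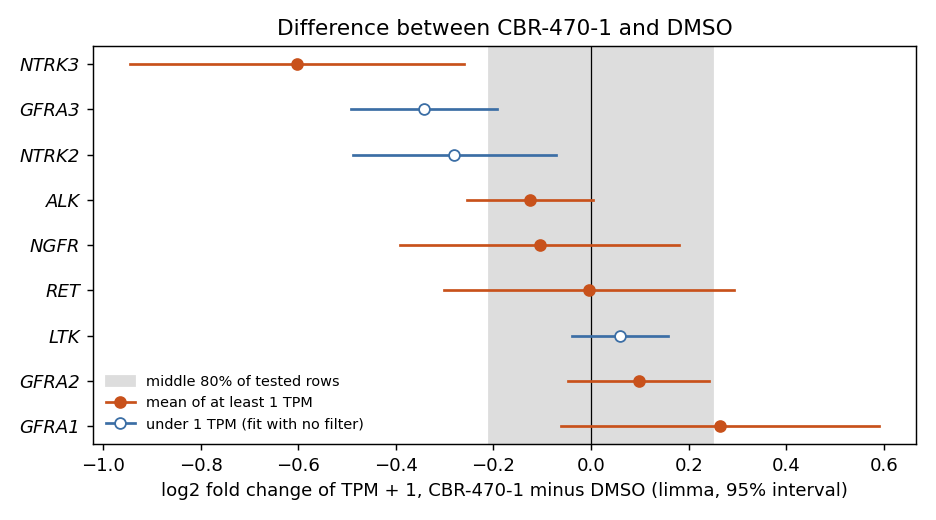
Log2 fold change of TPM + 1 (CBR-470-1 minus DMSO) of each gene with its 95% interval from limma. Filled points come from the fit of rows that averaged 1 TPM or more, and open points, for genes under 1 TPM, from the fit with no filter. The grey band holds the middle 80% of tested rows, from -0.21 to 0.25, and NTRK3 lies farthest from it at -0.60.

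ALK was the most abundant of the kinases among the 9. It measured 38.4, 38.2 and 37.5 TPM in the DMSO libraries and 36.0, 35.6 and 32.9 TPM in the CBR-470-1 libraries. Every CBR-470-1 library was below every DMSO library, but by little: the DMSO mean was 38.1 ± 0.452 TPM and the CBR-470-1 mean 34.8 ± 1.68 TPM (SD, n = 3 each). The ratio of the means was 0.915. The log2 fold change was -0.13 (95% interval -0.25 to 0.00, limma adjusted p = 0.223). ALK (ENSG00000171094.17) spans 29192774 to 29921566 on the minus strand of chromosome 2 in GRCh38, with 7 transcripts in GENCODE 29. Each gene has a single value, so for none of the 9 genes is it shown which isoform, exon or UTR was present.

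Among 52 receptor tyrosine kinase genes, ALK had rank 5 by mean TPM over the 6 libraries, at 36.5 TPM, with rank 5 in DMSO and rank 7 in CBR-470-1. PTK7, a kinase-dead receptor of Wnt signalling, was highest at 103 TPM, followed by RYK, FGFR1 and DDR2. IGF1R, the insulin-like growth factor receptor, at 36.2 TPM and the collagen receptor DDR1 at 35.3 TPM stood next to ALK. In CBR-470-1 both stood above ALK, IGF1R at a mean of 37.3 TPM and DDR1 at 38.6 TPM, against 35.1 and 31.9 TPM in DMSO. The CBR-470-1 libraries of both overlapped in range with those of ALK, and with their own DMSO libraries, so this order is not shown beyond the spread. Of the 27 other receptor tyrosine kinases tested, 0 were called (5 at an unadjusted p under 0.05), with a median log2 fold change of 0.08. FGFR3, a fibroblast growth factor receptor, and DDR1 had the largest differences, with log2 fold changes of 0.44 and 0.27 that did not pass (limma adjusted p = 0.228 and 0.420).

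LTK was barely present. It measured 0.0208, 0.0571 and 0.0223 TPM in DMSO and 0.108, 0.0937 and 0.0306 TPM in CBR-470-1. The groups overlapped, since CBR-470-1 replicate 3 lay below DMSO replicate 2. At this level no fold change can be read. In the fit with no filter the log2 fold change was 0.06 (95% interval -0.04 to 0.16, limma adjusted p = 0.565). LTK (ENSG00000062524.15) spans 41503638 to 41513887 on the minus strand of chromosome 15.

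RET transcripts were few and nearly equal in both groups. RET measured 1.29, 1.53 and 1.43 TPM in DMSO and 1.56, 1.42 and 1.25 TPM in CBR-470-1. Both the lowest and the highest library were in the CBR-470-1 group. The means were 1.42 ± 0.120 and 1.41 ± 0.155 TPM, a ratio of 0.996. The log2 fold change of -0.00 had a 95% interval from -0.30 to 0.29 (limma adjusted p = 0.986), and its sign turned with the processing. RET (ENSG00000165731.18) spans 43077027 to 43130351 on the plus strand of chromosome 10.

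The co-receptors were dominated by GFRA2, which prefers neurturin among the GDNF family ligands. GFRA2 measured 184, 187 and 214 TPM in DMSO and 213, 202 and 210.5 TPM in CBR-470-1. DMSO replicate 3 was the highest of all libraries, so the groups overlapped. The means were 195 ± 16.4 and 208 ± 5.48 TPM, a ratio of 1.07, with a log2 fold change of 0.10 (95% interval -0.05 to 0.24, limma adjusted p = 0.379). GFRA2 held 98.1% ± 0.157 of the summed TPM of GFRA1, GFRA2 and GFRA3 in DMSO and 98.0% ± 0.314 in CBR-470-1 (exact permutation test, p = 0.5). Per length, it exceeded RET 138 ± 14.2 times in DMSO and 149 ± 16.98 times in CBR-470-1 (exact permutation test, p = 0.6). GFRA2 (ENSG00000168546.10) spans 21690403 to 21812357 on the minus strand of chromosome 8.

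GFRA1, the preferred co-receptor for GDNF, had the largest log2 fold change above 0 among the 6 genes tested. It measured 2.76, 2.84 and 3.88 TPM in DMSO and 3.73, 4.56 and 3.63 TPM in CBR-470-1. DMSO replicate 3 lay within the CBR-470-1 range, and the other 2 DMSO libraries lay below it. The means were 3.16 ± 0.625 and 3.97 ± 0.510 TPM, a ratio of 1.26 and a log2 fold change of 0.26 (95% interval -0.06 to 0.59, limma adjusted p = 0.297). GFRA1 (ENSG00000151892.14) spans 116056925 to 116273467 on the minus strand of chromosome 10.

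GFRA3, the co-receptor for artemin, was lower in relative terms than any other of the 9. It measured 0.702, 0.680 and 0.746 TPM in DMSO and 0.302, 0.413 and 0.333 TPM in CBR-470-1. The DMSO libraries lay close together and all CBR-470-1 libraries lay well below them. The means were 0.709 ± 0.0338 and 0.349 ± 0.0572 TPM, a ratio of 0.492. The fit with no filter tested 23800 rows and called 82, or 0.345%, with 0 of the 9 receptor genes among them. At an unadjusted p under 0.05 it had 4 of the 9, ALK, GFRA3, NTRK2 and NTRK3, against 15.2% of its rows. Its rows include those under 1 TPM, and the share was 23.5% in the fit of rows averaging 1 TPM or more. In the fit with no filter the GFRA3 log2 fold change of TPM + 1 was -0.34 (95% interval -0.49 to -0.19, limma adjusted p = 0.0996). With a pseudocount of 0.1 TPM, for rows of at least 0.3 TPM, it was -0.86 (95% interval -1.58 to -0.13, adjusted p = 0.181), a setting chosen after the levels were seen. At a limma unadjusted p under 0.05 that setting had 2 of the 8 receptor genes it tested, GFRA3 and NTRK3. The share over all its rows was not counted. GFRA3 (ENSG00000146013.10) spans 138252379 to 138274671 on the minus strand of chromosome 5.

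Among the neurotrophin receptors, NTRK3 had the largest difference of all 9 on the log2(TPM + 1) scale, though with a pseudocount of 0.1 TPM that of GFRA3 was larger, at -0.86 against -0.68. It measured 8.003, 9.16 and 11.4 TPM in DMSO and 6.69, 4.95 and 6.11 TPM in CBR-470-1. All CBR-470-1 libraries lay below all DMSO libraries, and the DMSO libraries were themselves spread widely. The means were 9.54 ± 1.75 and 5.92 ± 0.887 TPM, a ratio of 0.620. The log2 fold change was -0.60 (SE 0.146, 95% interval -0.94 to -0.26, limma unadjusted p = 0.00391). The adjusted p of 0.0773 missed the threshold, and over the other settings tried it ran from 0.0556 to 0.194. NTRK3 (ENSG00000140538.16) spans 87859751 to 88256768 on the minus strand of chromosome 15. GENCODE 29 lists 21 transcripts for it, 14 of them protein-coding. Both NTRK3 and NTRK2 are known to make truncated receptors without a kinase. A single value per gene cannot separate these from the full receptors.

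NTRK2 was present at a low level and was lower in CBR-470-1. It measured 1.05, 0.863 and 0.867 TPM in DMSO and 0.587, 0.688 and 0.488 TPM in CBR-470-1, with no overlap. The means were 0.927 ± 0.107 and 0.588 ± 0.0996 TPM, a ratio of 0.634. In the fit with no filter the log2 fold change was -0.28 (95% interval -0.49 to -0.07, limma adjusted p = 0.209). With the pseudocount of 0.1 TPM it was -0.58, with an interval that included 0 (95% interval -1.2 to 0.03, limma adjusted p = 0.258). Of rows with a mean from 0.3 to under 1 TPM, a band set after the levels were seen, 4.69% were lower without overlap, as GFRA3 and NTRK2 were. NTRK2 (ENSG00000148053.15) spans 84668551 to 85027070 on the plus strand of chromosome 9.

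NGFR measured 2.10, 1.91 and 2.25 TPM in DMSO and 2.01, 1.60 and 2.00 TPM in CBR-470-1. The groups overlapped, and CBR-470-1 replicate 2 was the lowest library. The means were 2.09 ± 0.166 and 1.87 ± 0.232 TPM, with a log2 fold change of -0.11 (95% interval -0.39 to 0.18, limma adjusted p = 0.633). NGFR (ENSG00000064300.8) spans 49495293 to 49515017 on the plus strand of chromosome 17. Its exons share 924 bases with the gene AC015656.1 and 202 bases with AC006487.1, both on the opposite strand and without a row in the table. It was the only 1 of the 9 with exons shared with another GENCODE 29 gene. The ratio of NTRK3 to NGFR was 3.81, 4.79 and 5.10 in DMSO and 3.33, 3.08 and 3.05 in CBR-470-1, without overlap. Its means were 4.56 ± 0.669 and 3.15 ± 0.152 (exact permutation test, p = 0.1, the smallest p that 3 against 3 can give). NTRK3 was itself lower without overlap, so this ratio is not a result separate from the NTRK3 values.

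The stretches just before the transcription starts of the genes whose groups did not overlap were read for known motifs. Sequences are from RefSeq on GRCh38.p14, on the gene's strand, and 7 of the 9 genes matched with 15 start windows in all. Each window holds the 250 bases before a start. Searched on both strands were TGACNNNGC, the core of the antioxidant response element bound by NRF2 with small MAF proteins, CACGTG, the E-box bound by MYC family proteins, and GGGCGG, the GC box bound by SP1. They occur in 10.9%, 6.34% and 42.6% of 35116 such windows of all genes, and occurred in 2, 1 and 8 of the 15. In the NTRK3, GFRA3 and ALK stretches below, bases that lie in any GENCODE 29 exon are left out. The NTRK2 stretch was not checked against exons. Capitals mark a motif match.
NTRK3, chr15:88256769-88256989, minus strand: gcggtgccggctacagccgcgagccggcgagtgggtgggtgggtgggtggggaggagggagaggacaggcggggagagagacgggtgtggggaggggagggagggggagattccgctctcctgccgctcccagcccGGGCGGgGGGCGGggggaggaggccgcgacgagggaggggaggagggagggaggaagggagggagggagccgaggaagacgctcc
GFRA3, chr5:138274672-138274871, minus strand: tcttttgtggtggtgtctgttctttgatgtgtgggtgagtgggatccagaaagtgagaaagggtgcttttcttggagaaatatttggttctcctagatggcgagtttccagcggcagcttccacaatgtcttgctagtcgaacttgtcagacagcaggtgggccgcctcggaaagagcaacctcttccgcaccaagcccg
ALK, chr2:29921587-29921836, minus strand: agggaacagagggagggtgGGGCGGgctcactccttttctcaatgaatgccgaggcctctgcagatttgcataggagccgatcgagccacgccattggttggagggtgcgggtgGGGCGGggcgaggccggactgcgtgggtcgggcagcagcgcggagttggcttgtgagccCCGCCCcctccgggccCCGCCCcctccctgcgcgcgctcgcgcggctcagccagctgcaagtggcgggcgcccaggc
NTRK2, chr9:84670190-84670219, plus strand, 30 bases around a match before its listed start 3: ggtggctccaGCGGCGTCAgtgccatcgcg

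The capitals in NTRK3 and ALK are GC boxes, 2 in the NTRK3 stretch and 4 in the ALK stretch, and those in NTRK2 are the antioxidant response element core on the opposite strand. The stretches shown have a GC content of 75.6% for NTRK3, 51.5% for GFRA3 and 71.6% for ALK. The NTRK3 and ALK stretches hold neither the antioxidant response element core nor the E-box, and the GFRA3 stretch holds none of the motifs, while 1 GC box lies in its left-out bases. The other window with an antioxidant response element core lay before the second listed start of RET, whose level was nearly equal in both groups. The E-box lay before the second listed start of ALK. A match shows only that these letters are present.

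The ligands of these receptors were mostly scarce in the cells, apart from midkine. Of 12 ligand genes 5 were abundant enough to test, and 0 were called (1 at an unadjusted p under 0.05, median log2 fold change -0.11). MDK, encoding midkine, a heparin-binding growth factor reported to bind ALK, averaged 874 ± 103 TPM with DMSO and 766 ± 23.2 TPM with CBR-470-1. Its log2 fold change was -0.19 (limma adjusted p = 0.202), and the groups did not overlap. BDNF, the ligand of TrkB, averaged 4.70 and 5.25 TPM, with all CBR-470-1 libraries above all DMSO libraries (limma adjusted p = 0.368). Of the 5 tested ligands, 2 were lower without overlap and 1, BDNF, higher, against 12.5% and 17.7% of all tested rows. NTF3, which encodes the TrkC ligand neurotrophin-3, is listed at 0 in every library. GDNF averaged 0.242 and 0.189 TPM, and the neurturin gene NRTN 0.708 and 0.900 TPM. The ALK ligand gene ALKAL2, listed as FAM150B, averaged 1.31 and 1.15 TPM.

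Of 15 tested co-receptors and receptor partners, 1 was called higher and 1 lower (3 at an unadjusted p under 0.05, median log2 fold change -0.07). LRIG2, of a family of leucine-rich transmembrane proteins that regulate receptor kinases, measured 6.88, 6.56 and 6.43 TPM in DMSO and 10.5, 10.9 and 9.62 TPM in CBR-470-1. It rose by 0.57 on the log2 scale (SE 0.0782, limma adjusted p = 0.0229), and all 3 CBR-470-1 libraries lay above all DMSO libraries. RTN4R, the Nogo receptor, which can signal together with p75, measured 14.7, 13.8 and 15.9 TPM in DMSO and 10.7, 10.2 and 11.4 TPM in CBR-470-1. It fell by 0.42 on the log2 scale (SE 0.0780, limma adjusted p = 0.0465), again without overlap. With any single library left out, which leaves fewer samples, both lost their calls, with adjusted p up to 0.0996 for LRIG2 and 0.148 for RTN4R. Correcting for GC content and length also ended the RTN4R call, at a log2 fold change of -0.30 and an adjusted p of 0.0657. With no filter on low rows the adjusted p was 0.0614 for LRIG2 and 0.0990 for RTN4R. Of 18 other settings, 9 ended the LRIG2 call and 12 the RTN4R call. NCAM1, an adhesion molecule that can also bind GDNF, averaged 118 and 113 TPM, and SORT1, encoding sortilin, the partner of p75 for proneurotrophins, 37.9 and 34.4 TPM.

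Of the 12 intracellular partners of p75, all were tested and 1 was called, as lower (5 at an unadjusted p under 0.05, median log2 fold change 0.00). This was BEX3, also known as NADE, which binds the p75 death domain. It measured 411, 415 and 438 TPM in DMSO and 348, 353 and 352 TPM in CBR-470-1, without overlap. BEX3 fell by 0.26 on the log2 scale (SE 0.0360, limma adjusted p = 0.0230). It lost its call in 5 of 6 fits that leave out a library, with an adjusted p of up to 0.108, and in 9 of all 18 other settings. TRAF6, an adaptor that p75 recruits, had a log2 fold change of 0.30 that did not pass (limma adjusted p = 0.200). BEX1, a related gene that can share reads with its paralogs, had -0.18 (limma adjusted p = 0.0562).

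Of 28 tested adaptors and proximal signalling genes, 0 were called (7 at an unadjusted p under 0.05, median log2 fold change 0.07). PIK3R1, the regulatory subunit of phosphoinositide 3-kinase, averaged 19.4 ± 2.46 TPM with DMSO and 29.6 ± 3.97 TPM with CBR-470-1. Its groups did not overlap, and its log2 fold change of 0.58 missed the threshold (limma adjusted p = 0.0592). DOK6, a docking protein of RET, had 0.37 (limma adjusted p = 0.191). Of 16 tested ERK-responsive genes, which rise when receptor kinases signal, 0 were called (4 at an unadjusted p under 0.05, median log2 fold change -0.01). ARC, an immediate early gene, and DUSP6, an ERK phosphatase, had -0.37 and -0.31 (limma adjusted p = 0.164 and 0.177). Of 16 sympathetic lineage transcription factors, 0 were called (5 at an unadjusted p under 0.05, median log2 fold change -0.04). HOXC9 and KLF7 had the largest differences, -0.25 and 0.25 (limma adjusted p = 0.238 and 0.108).

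**Figure D3:**
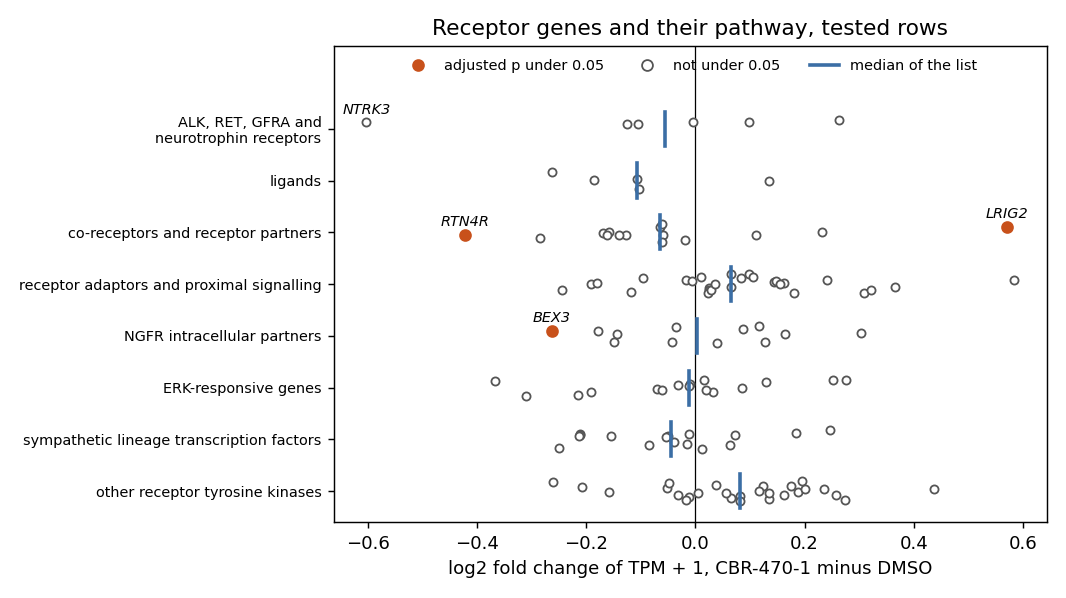
Log2 fold change of TPM + 1 (CBR-470-1 minus DMSO) of every tested gene in the 8 lists, with vertical offsets for legibility and a bar at the list median. Filled points, named, have a limma adjusted p under 0.05: LRIG2 at 0.57, RTN4R at -0.42 and BEX3 at -0.26. The receptor list has no filled point, and NTRK3 lies at -0.60.

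Of the 10 adrenergic markers above, all tested, 1 was called higher and 2 lower (4 at an unadjusted p under 0.05). Over all tested rows 1.97% were called, and 23.5% had an unadjusted p under 0.05. Called were 0 of 1 tested glial and 0 of 5 tested mesenchymal markers (0 and 2 at an unadjusted p under 0.05). The neuronal growth-associated gene STMN2 rose by 0.38 on the log2 scale (limma adjusted p = 0.0233). DBH, which makes noradrenaline, fell by 0.53 and the granule protein gene CHGA fell by 0.23 (limma adjusted p = 0.0247 and 0.0468). With a library left out, DBH and CHGA lost their calls in 6 of 6 fits and STMN2 in 4. CHGA lost its call in 13 of 18 other settings, and correcting for GC content and length brought its log2 fold change to -0.13 (limma adjusted p = 0.0874). Of the same 18, DBH lost its call in 9 and STMN2 in 8. The mesenchymal markers PRRX1 and PDGFRB had log2 fold changes of -0.26 and 0.20 and did not pass (limma adjusted p = 0.292 and 0.146).

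The rows whose profile over the 6 libraries lay nearest to each of the 3 most abundant members were sought among rows of at least 5 TPM whose own SD over the libraries was at least 0.5 times that of the member. The numbers of rows and the medians below hold within this limit. Likeness was the root mean square difference between log2(TPM + 1) profiles, each centred on its own mean. Nearest to GFRA2 among 9784 rows were DGKH, TMEM208 and BBX, with differences of 0.0130, 0.0204 and 0.0231 against a median of 0.138 over those rows. Nearest to ALK among 10060 rows were SNX33, QARS and IGF2BP1, at 0.00933, 0.0178 and 0.0218 against a median of 0.135. Nearest to NTRK3 among 1649 rows were ADRA2C, PPP2R2B and EVI5L, at 0.0816, 0.103 and 0.106 against a median of 0.454. These neighbours of NTRK3 had log2 fold changes of -0.53, -0.57 and -0.53, and like NTRK3 none of them passed (limma adjusted p = 0.0603, 0.0734 and 0.0755). They were chosen by nearness over the same 6 libraries, so fold changes like that of NTRK3 follow from the choice. With so many rows and only 6 libraries, close profiles can arise without any link between the genes. How often they do was not counted.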

How the data were processed

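Expression came as TPM in a single table that the authors deposited, with gene symbols in rows and libraries in columns. The submitters' processing notes name bcl2fastq, Salmon 0.7.2 and GRCh38. The annotation, Salmon options, strand setting and summing to genes: not given in the sources used here. Per the labels' protocols, polyA RNA was made into libraries with an NEBNext Ultra kit. Groups follow the titles, 3 libraries each, which the series design calls independent biological replicates.

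Rows averaging 1 TPM or more (13470) were tested as log2(TPM + 1) with limma 3.58.1 in R 4.3.3, with a variance trend, 2-sided, and with Benjamini-Hochberg adjustment over these rows. The pseudocount understates changes of low genes. The receptors, the 11 other gene lists and the tests were chosen with earlier results of these data known. Named were all receptors and, per list, the called genes and the 2 largest changes. A few others were named for their role or level after their values were seen. Some genes this rule picks are not reported here. Gene models are from GENCODE 29. The alternatives tried were other pseudocounts, filters, scalings and variance models, a GC and length correction, a replicate block and each library left out.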

Additional observations from a re-analysis of the deposited data

How the results depend on the processing

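In all 18 settings tried, 0 receptor genes were called by limma, with no exception among those abundant enough to test in each. The threshold of 0.01 was read from the main fit, so it could add no call. A left-out library leaves fewer samples, so a call is harder to reach in those fits. ALK and NTRK3 kept a log2 fold change below 0 and GFRA1 and GFRA2 one above 0 in every setting that tested them. For ALK and NTRK3, whose groups did not overlap, no pseudocount and no left-out library could turn the sign. The filters, variance models and replicate block leave each log2 fold change as it is, so none of these is separate support for a sign. ALK ran from -0.16 to -0.08, NTRK3 from -0.71 to -0.41, GFRA1 from 0.14 to 0.38, GFRA2 from 0.06 to 0.17 and NGFR from -0.15 to -0.02. The sign of RET turned to 0.0213 with the GC and length correction, with or without the replicate block, and its values ran from -0.0488 to 0.0440 with single libraries left out. A filter at 5 TPM leaves RET, GFRA1 and NGFR untested. Over all rows, 265 calls became 82 without a filter, 428 among rows averaging 5 TPM or more, 83 with no variance trend and 22 at an adjusted p under 0.01. They became 18 to 82 with a library left out. Median centring gave 124 higher and 237 lower calls against 152 and 113. Why these counts moved was not tested. The replicate block gave 17 calls over all rows. Libraries with the same number did not vary together (correlations of deviations -0.14, -0.01 and -0.03), and for 0 of 3 DMSO libraries was the highest correlation with its own number, so the numbers are not taken as pairs. The depth is unknown, so no floor can be given for LTK, GFRA3 or NTRK2.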
